A study of Mus musculus with 6 samples.

Results

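STAT3 promoter peaks are the peaks of the STAT3 ChIP-seq library from lin-CD34+ EML cells whose centre lay within 1000 bp of a transcription start site (TSS), by the distance that the authors deposited for each peak. There were 416 of them among 885 STAT3 peaks (47.0%, exact 95% interval 43.7 to 50.4), and they were assigned to 410 genes. The deposited list held no peak farther upstream than −4984 bp, while downstream distances reached 791240 bp. The share, and comparisons with the other peaks, therefore describe that list and not all STAT3 binding. EML is a mouse line of blood precursor cells, labelled here as of B6D2F1 strain, from which lin-CD34+ and lin-CD34- cells were isolated with magnetic beads and a flow sorter. The groups used were STAT3 ChIP in lin-CD34+ cells, SOX4 ChIP in lin-CD34+ cells, GABPa ChIP in lin-CD34- cells and ATAC-seq in lin-CD34+ cells. Each was 1 library of 1 cell line, so no difference could be set against a spread between replicates, no p-value was computed, and GABPa differed from STAT3 in cell population as well as in antibody. Intervals given after shares are exact Clopper-Pearson intervals and cover counting error only.

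STAT3 is a transcription factor that cytokine receptors activate through JAK kinases. It then enters the nucleus as a dimer and binds palindromes of the form TTCNNNGAA, and in blood precursors it is known for its part in self-renewal and in the response to cytokines. Promoters of genes used in all cell types are often rich in CpG and carry sites for ETS factors such as GABPa, for NRF1, for the E-box factors USF and MYC, and for SP factors at GC boxes.

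The promoters below are shown because their peaks were among those with the most tags or the highest score, or carry the motifs on which the comparisons turn. Each is the stretch from −250 to −1 bp of the TSS on the gene's strand, from RefSeq's promoter table on GRCm38.p6, the assembly named mm10. Capitals mark a STAT palindrome (TTCNNNGAA), an ETS core (CCGGAAG) or an NRF1 site (GCGCATGCG), each on either strand. Sec24c encodes a coat subunit of the vesicles that leave the endoplasmic reticulum (chr14:20674071-20674320, plus strand), Nup107 a scaffold subunit of the nuclear pore (chr10:117792706-117792955, minus strand) and Cbfb the partner subunit of the RUNX factors (chr8:105170424-105170673, plus strand). Mrpl30 encodes a protein of the mitochondrial ribosome (chr1:37890227-37890476, plus strand) and Copg1 a subunit of the Golgi coat COPI (chr6:87887690-87887939, plus strand).
Sec24c: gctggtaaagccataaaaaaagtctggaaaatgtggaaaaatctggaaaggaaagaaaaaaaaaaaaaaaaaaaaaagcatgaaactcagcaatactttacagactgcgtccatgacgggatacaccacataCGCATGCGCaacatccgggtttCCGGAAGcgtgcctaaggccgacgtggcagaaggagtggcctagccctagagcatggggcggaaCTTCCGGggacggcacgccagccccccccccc
Nup107: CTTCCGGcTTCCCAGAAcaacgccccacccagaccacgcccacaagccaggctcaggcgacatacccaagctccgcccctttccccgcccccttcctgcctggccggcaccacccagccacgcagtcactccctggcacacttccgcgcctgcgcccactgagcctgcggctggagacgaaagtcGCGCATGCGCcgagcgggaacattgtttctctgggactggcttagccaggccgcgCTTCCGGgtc
Cbfb: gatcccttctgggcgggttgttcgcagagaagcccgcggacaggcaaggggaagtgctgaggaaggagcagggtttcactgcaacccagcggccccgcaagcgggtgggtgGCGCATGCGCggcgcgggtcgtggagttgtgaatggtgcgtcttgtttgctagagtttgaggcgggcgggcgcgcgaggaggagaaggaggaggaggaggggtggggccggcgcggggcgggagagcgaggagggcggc
Mrpl30: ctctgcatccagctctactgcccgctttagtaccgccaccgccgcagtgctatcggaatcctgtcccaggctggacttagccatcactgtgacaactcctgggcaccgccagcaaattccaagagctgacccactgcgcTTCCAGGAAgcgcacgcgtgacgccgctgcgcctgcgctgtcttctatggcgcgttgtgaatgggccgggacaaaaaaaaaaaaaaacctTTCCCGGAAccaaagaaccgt
Copg1: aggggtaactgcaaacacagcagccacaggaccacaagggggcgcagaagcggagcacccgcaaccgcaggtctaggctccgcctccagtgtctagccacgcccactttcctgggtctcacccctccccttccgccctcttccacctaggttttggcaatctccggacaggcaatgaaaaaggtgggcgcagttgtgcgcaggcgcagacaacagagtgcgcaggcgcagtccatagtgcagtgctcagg
The peak summit, the point of highest signal in the peak, lay −92 bp from the TSS at Sec24c, where an ETS core was centred −1 bp and an NRF1 site −22 bp from the summit. At Cbfb the summit lay −135 bp from the TSS, on the NRF1 site itself. Nup107 carried all of these motifs, and its STAT palindrome lay beside an ETS core, at −51 bp and −60 bp from the summit. Mrpl30 carried 2 copies of the stricter STAT3 palindrome TTCCNGGAA, which is marked, at −133 bp and −43 bp from the summit. The highest-scoring promoter peak of the list, at Copg1, had its summit −3 bp from the TSS, and its 250 bases upstream held none of the marked motifs.

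The share of the STAT palindrome in promoters with a STAT3 peak was near that in other promoters, on few sites. A promoter window of 300 bases, from 250 before to 50 after the TSS, was matched to 332 of the 416 peaks, which gave 329 distinct windows. TTCNNNGAA on either strand was found in 24 of them (7.29%, 4.73 to 10.7), against 6.92% of 13781 windows of genes with an ATAC promoter peak and 8.30% of all 32851 windows. TTCCNGGAA was found in 6 (1.82%, 0.672 to 3.93), against 1.18% and 1.15%. Counting the 286 windows that a peak overlapped, 23 held TTCNNNGAA (8.04%, 5.17 to 11.8). These shares are a description of letters in a fixed window, and peak sequence outside the window was not read.

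The sites that fit the STAT palindrome are few enough to show, each with 6 bases on either side and the palindrome in capitals. The stricter form occurred at Mrpl30, shown above, at Zfp13, whose peak did not reach the window, and, in the first 4 lines here, at Nfxl1, a zinc finger gene, Txn2, the mitochondrial thioredoxin gene, Ddx51, an RNA helicase gene, and 5730460C07Rik.
Nfxl1 (chr5:72559752-72559772, minus strand): cgtctcTTCCGGGAAaaaaaa
Txn2 (chr15:77928997-77929017, minus strand): tagtctTTCCCGGAAatgacg
Ddx51 (chr5:110653360-110653380, plus strand): tcccggTTCCTGGAAaccgaa
5730460C07Rik (chr3:153792112-153792132, minus strand): gtttccTTCCTGGAActggag
Pmm2 (chr16:8637644-8637664, plus strand): ccggtgTTCTGTGAAccatta
Pih1d1 (chr7:45154293-45154313, plus strand): cggggcTTCCGAGAAggccgc
Gm2a (chr11:55097898-55097918, plus strand): gcctctTTCGCAGAAcctttt
Ing3 (chr6:21949485-21949505, plus strand): ctacatTTCCCAGAAtaccgc
Eif4e (chr3:138527123-138527143, plus strand): ctccacTTCCCAGAAgcctct
The other 5 were chosen, after their values were seen, as those nearest to a summit or at strong peaks. Pmm2, which encodes a phosphomannomutase of protein glycosylation, had its palindrome 13 bp from the summit, and Pih1d1, a subunit of a chaperone complex, 19 bp from it. Gm2a, the activator of a lysosomal lipid hydrolase, had it at 27 bp, the histone acetyltransferase subunit gene Ing3 at −30 bp and the cap-binding factor gene Eif4e at −36 bp. At Nfxl1, Txn2, Ddx51 and 5730460C07Rik the stricter palindrome lay farther off, at −66, 156, −100 and 126 bp from the summit. A STAT palindrome came within 50 bp of the summit in 7 of the 24 peaks that had one in an overlapped window, and within 25 bp in 2. The peaks with a palindrome had a median score of 117 and those without one 100.8.

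ETS cores and NRF1 sites, in contrast, stood out. CCGGAAG was found in 120 of the 329 windows (36.5%, 31.3 to 41.9), against 14.6% of windows of genes with an ATAC promoter peak and 8.86% of all windows. GCGCATGCG was found in 46 (14.0%, 10.4 to 18.2), against 3.01% and 1.75%, which was 4.64 times the share in ATAC promoters and the largest ratio of the 20 motifs searched, runs of A or T aside. The E-box CACGTG was in 60 windows (18.2%, 14.2 to 22.8), against 9.38% and 7.15%. The E2F site TTCCCGCC of cell cycle promoters was in 28 (8.51%, 5.73 to 12.1), against 3.55% and 2.19%. The site TCTCGCGAG, bound by BANP, was in 8 (2.43%, 1.06 to 4.73), against 1.18% and 0.676%. All of these motifs hold a CpG. The windows had a higher median ratio of observed to expected CpG than ATAC promoter windows (0.892, against 0.698). Neither background was matched for CpG, and how much of the excess goes with it was not tested. An ETS core or an NRF1 site was present in 143 of the 287 peaks that overlapped their window (49.8%, 43.9 to 55.8), and both together in 16.

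Several other motifs were at or under their share in ATAC promoters. TATAAA was found in 10 windows (3.04%, 1.47 to 5.52), against 8.11% of windows of genes with an ATAC promoter peak and 13.6% of all windows. The CCAAT box was in 30.7% (25.8 to 36.0), against 36.7% and 37.4%. The RUNX letters TGTGGT were in 45 (13.7%, 10.2 to 17.9), the GATA letters AGATAA in 22 (6.69%, 4.24 to 9.95) and the SOX letters CATTGT in 18 (5.47%, 3.27 to 8.51). The windows were rich in CpG: the ratio of observed to expected CpG had a median of 0.892, against 0.698 in windows of genes with an ATAC promoter peak and 0.384 in all windows. Median GC content was 61.3%, against 59.3% and 52.7%, and the GC box GGGCGG was in 70.2% of windows, against 56.6% and 35.7%.

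**Figure D1:**
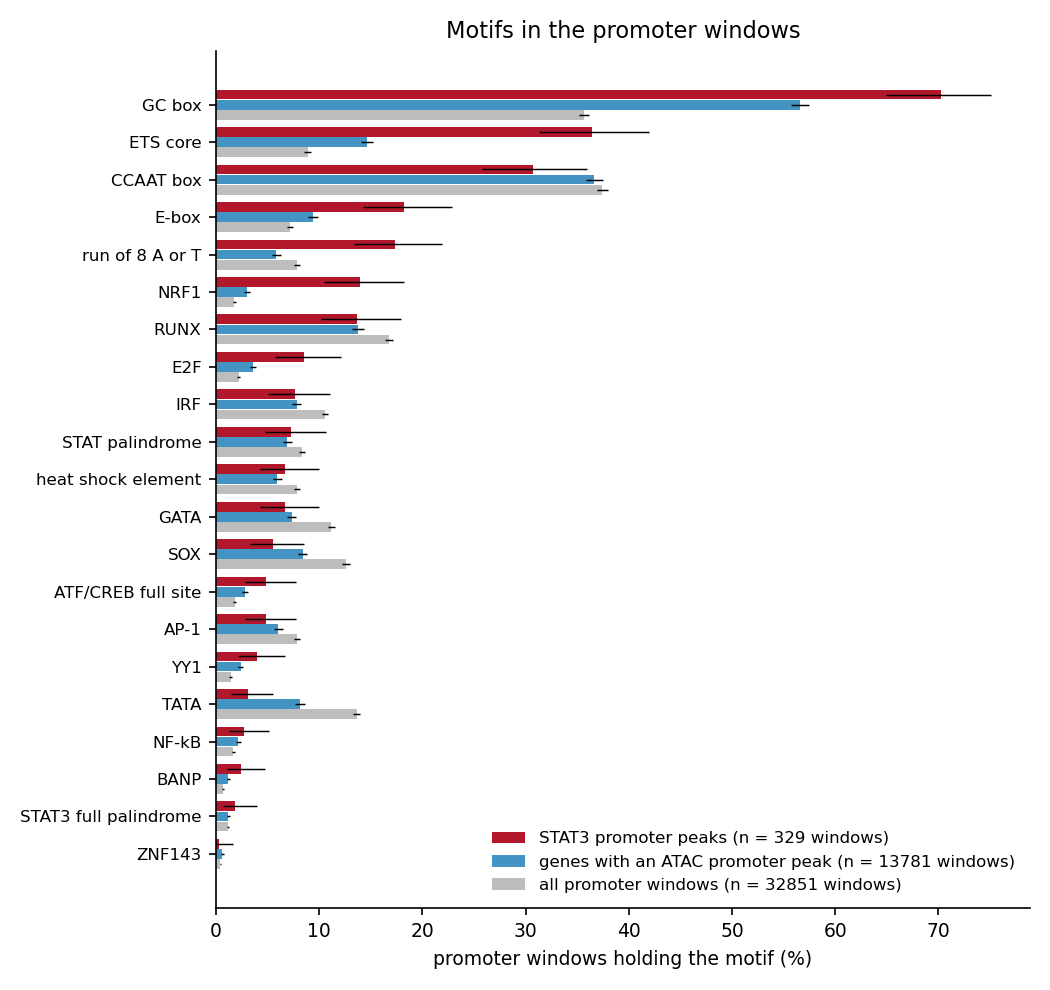
Share of promoter windows (x axis, %) that hold each of 21 motifs (y axis) on either strand. Bars are windows with a STAT3 promoter peak (red), windows of genes with an ATAC promoter peak (blue) and all promoter windows (grey), with exact 95% intervals over windows. The red bars exceed the others for the ETS core (36.5%), the E-box (18.2%) and NRF1 (14.0%), and not for the STAT palindrome (7.29%).

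Within the same windows, ETS cores lay mostly inside the STAT3 peaks. In the 287 peaks that overlapped their window, 74.99% of window bases were in the peak, and 146 of 154 ETS cores were centred there. That is 2.26 cores per kb in the peak and 0.372 per kb outside it, while windows of genes with an ATAC promoter peak had 0.619 and 0.451 per kb at the same positions relative to the TSS. NRF1 sites numbered 0.681 per kb in the peak and 0.279 outside, against 0.115 and 0.0832 at the same positions. E-boxes numbered 1.08 and 0.557 per kb, against 0.366 and 0.300. For the STAT palindrome the figures were 0.310 per kb in the peak (20 of 25 sites) and 0.232 outside, against 0.241 and 0.250, and GC boxes numbered 4.57 and 4.55 per kb, against 4.29 and 3.25. The stricter palindrome TTCCNGGAA had 6 sites, all in the peak, which is 0.0929 per kb, against 0.0420 at the same positions.

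**Figure D2:**
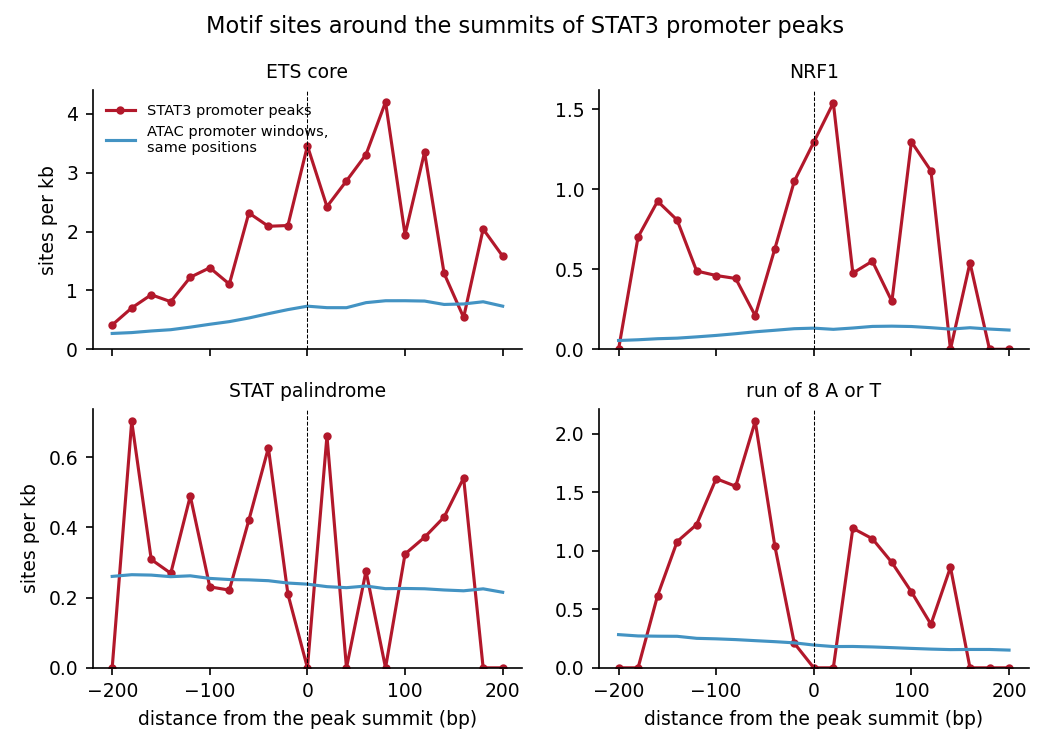
Motif sites per kb of window sequence (y axis) in bins of 20 bp around the summits of 287 STAT3 promoter peaks (x axis, bp, negative towards the upstream side of the gene). Red points are promoters with a STAT3 peak and blue lines are windows of genes with an ATAC promoter peak at the same positions relative to the TSS. ETS cores and NRF1 sites are denser than in the blue line at the summit and at most other distances. ETS cores are densest at 80 bp (4.20 per kb, against 0.824). STAT palindromes scatter around the blue line, and runs of 8 A or T are sparse at the summit itself.

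Some of the ETS cores and NRF1 sites near a summit are shown with 6 bases on either side and the site in capitals. The genes encode Mief1, a receptor on the outer mitochondrial membrane, Egf, the epidermal growth factor, Prpf19, a splicing factor, Ccnt1, a cyclin of the elongation kinase, Atg3, an enzyme of autophagy, and Surf6, a nucleolar protein.
Mief1 (chr15:80234009-80234027, plus strand): ggccgaCCGGAAGtgcttc
Egf (chr3:129725119-129725137, minus strand): ccgagaCCGGAAGtactgc
Prpf19 (chr19:10895157-10895175, plus strand): cgctcgCCGGAAGaagccg
Ccnt1 (chr15:98567804-98567822, minus strand): gtcattCCGGAAGtcggcg
Atg3 (chr16:45158812-45158830, plus strand): gggaagCCGGAAGgggtgt
Surf6 (chr2:26902883-26902901, minus strand): aagataCTTCCGGcggggt
The NRF1 sites are from Ttc3, a ubiquitin ligase gene, Brd2, the gene of a bromodomain reader of acetylated histones, the zinc finger gene Zfp719, Vps33a, a vesicle tethering gene, and Atp6v1e1, a subunit of the proton pump of lysosomes.
Ttc3 (chr16:94370724-94370744, plus strand): cgactGCGCATGCGCacccta
Brd2 (chr17:34122610-34122630, minus strand): acccttGCGCATGCGCtatgt
Zfp719 (chr7:43579525-43579545, plus strand): ggtggtGCGCATGCGCgccac
Vps33a (chr5:123573112-123573132, minus strand): cctcctCGCATGCGCactagg
Atp6v1e1 (chr6:120822831-120822851, minus strand): gctctGCGCATGCGCctggga
The ETS core was centred 1 bp from the summit at Mief1, −2 bp at Egf, 4 bp at Prpf19, −5 bp at Ccnt1, 7 bp at Atg3 and 9 bp at Surf6. The NRF1 site was −1 bp from the summit at Ttc3, 4 bp at Brd2, 7 bp at Zfp719, 11 bp at Vps33a and −17 bp at Atp6v1e1. In all, the nearest ETS core came within 50 bp of the summit in 52 of 114 peaks that had one, and the nearest NRF1 site in 22 of 45. These genes were picked after their values were seen. ETS cores were in 46.4% (39.0 to 54.0) of overlapped windows whose peak centre lay within 100 bp of the TSS and in 29.8% (20.8 to 40.1) at over 100 to 300 bp, and NRF1 sites in 19.3% (13.9 to 25.9) and 9.57% (4.47 to 17.4).

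STAT3 promoter peaks sat on the core promoter. The peak centre lay within 100 bp of the TSS in 228 of 416 (54.8%, 49.9 to 59.7), against 50 of 354 GABPa promoter peaks (14.1%, 10.7 to 18.2) and 18 of 160 SOX4 promoter peaks (11.3%, 6.81 to 17.2). GABPa promoter peaks were wider, with a median of 1020 bp, against 323 bp for STAT3, so their centres are placed less finely. SOX4 promoter peaks were narrower, with a median of 166 bp. The centre was upstream of the TSS in 305 STAT3 promoter peaks (73.3%, 68.8 to 77.5), and the median distance was −65 bp. The peak interval covered the TSS in 293 (70.4%, 65.8 to 74.8). Another 116 lay at over 100 to 300 bp, 31 at over 300 to 500 bp and 41 farther out.

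**Figure D3:**
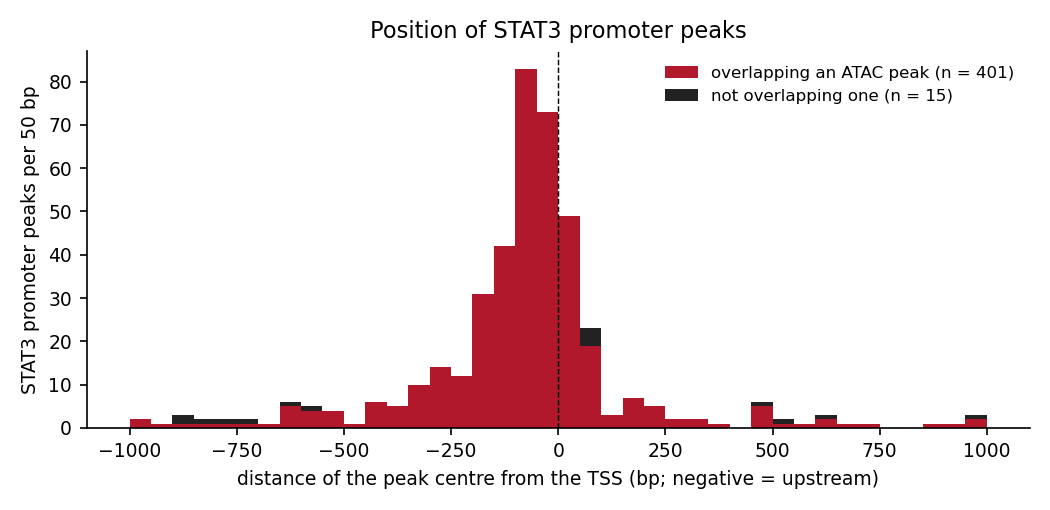
Number of STAT3 promoter peaks (y axis) in 50 bp bins of the distance from the peak centre to the TSS (x axis, bp, negative upstream). Red bars are the 401 peaks that overlapped an ATAC peak and black bars the 15 that did not. The counts are highest just upstream of the TSS, and most black bars lie beyond 300 bp.

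At the 1000 bp limit, peaks on either side had 20 to 57 tags. The 3 just inside were at Malat1, a nuclear noncoding RNA (−981 bp, 33 tags), Lgr5, a receptor of the Wnt pathway (999 bp, 25 tags) and Krt84, a keratin gene (1000 bp, 34 tags). The 3 just outside were at Fbp2, a gluconeogenic enzyme (−1029 bp, 57 tags), Zfp1 (1065 bp, 46 tags) and Yy1, a zinc finger transcription factor (−1074 bp, 20 tags).

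In strength, STAT3 promoter peaks and the others overlapped widely. Tags are the reads counted in a peak, and the score and fold are the peak caller's own values for each peak. Promoter peaks had 18 to 112 tags (median 32, quartiles 25 and 41), against 11 to 109 (median 29) in the other 469 STAT3 peaks. The median score was 97.9, against 87.2, and the median fold over background was 22.3 in both. No promoter peak was annotated to a repeat by the authors (0 of 416, interval up to 0.883%), against 123 of the other 469 (26.2%, 22.3 to 30.5). Since 381 of the 416 carried the authors' promoter class, and a peak has 1 class, a repeat under those would not show. Most nearest genes were protein-coding (390 of 416), with 23 noncoding RNA genes, 2 pseudogenes and 1 rRNA gene.

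The highest scores were at genes of varied function. After Copg1 (51 tags, score 216) came Nfat5, the factor of osmotic stress (57 tags, score 216), Txnl4b, a homologue of a spliceosome protein (81 tags, score 214), Naa25, a subunit of an N-terminal acetyltransferase (89 tags, score 212), and Nat10, which acetylates RNA (49 tags, score 210.0). The Eapp peak, at the gene of an E2F-binding phosphoprotein, had the highest fold of all, 57.1, with 55 tags, and lay −935 bp from the TSS. Sec24c and Slfn5, a gene of the interferon-inducible Schlafen family, each had 70 tags and a score of 202. The Slfn5 peak lay 627 bp downstream of its TSS.

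The 20 highest scores also included the following. Mrps18b, a mitochondrial ribosomal protein gene, had 56 tags, and Eif3d, a subunit of translation initiation factor eIF3, had the most tags of any promoter peak, 112. Tbrg4, a mitochondrial RNA regulator, had 71 tags, Lamtor3, a scaffold of growth signalling on lysosomes, 54, the chaperone gene Hspa4 81 and Pik3cg, the catalytic subunit of a PI3-kinase of blood cells, 63. Eif4e had 66, Anapc15, a subunit of the anaphase-promoting complex, 74, Npm1, the nucleolar chaperone nucleophosmin, 48, Zfp438 89 and the splicing regulator gene Hnrnpl 39. The noncoding RNA gene 4930526I15Rik had 77.

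**Figure D4:**
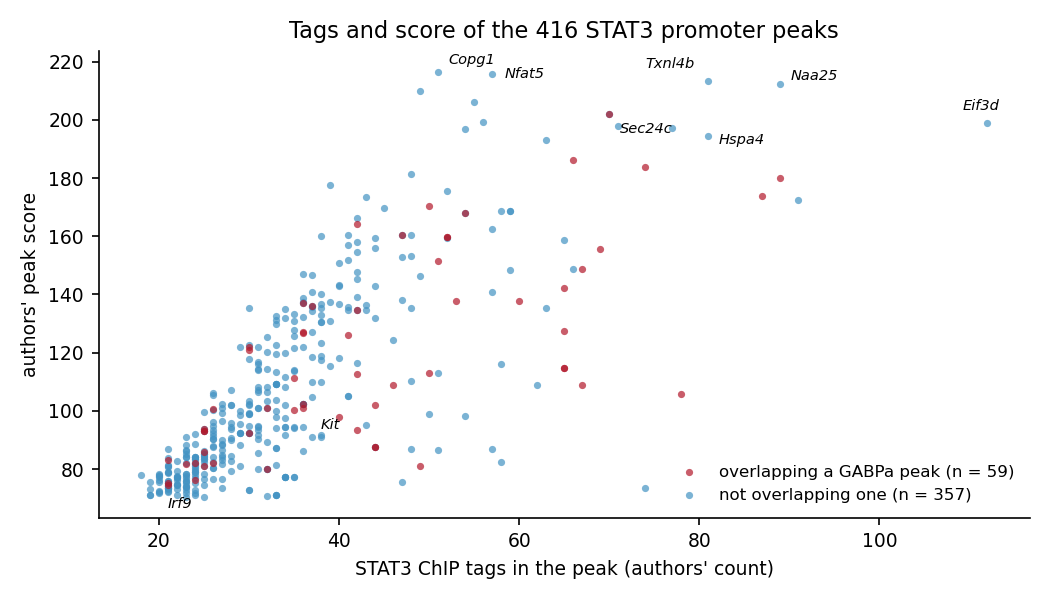
The authors' peak score (y axis) against tags in the peak (x axis) for the 416 STAT3 promoter peaks, 59 overlapping a GABPa peak (red) and 357 not (blue). The peak with most tags, Eif3d with 112, ranked 10 of 416 by score, and red points are absent from the 6 highest scores.

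Some genes had more than 1 STAT3 promoter peak. These were Eif4e (66 tags at −35 bp and 26 tags at −298 bp), Usp1, a deubiquitinase of DNA repair (42 tags at −542 bp and 41 tags at −45 bp), Tgif1, a homeobox repressor (63 tags at −703 bp and 24 tags at −709 bp, from different start sites), Uap1l1 (21 tags at −650 bp and 18 tags at −17 bp), 1700028E10Rik (35 tags at −88 bp and 31 tags at 290 bp) and 4930526I15Rik (77 tags at 637 bp and 27 tags at −174 bp). In addition, 11 of the 410 genes had a STAT3 peak elsewhere in the list. Runx1, a master factor of blood stem cells, had 40 tags at its promoter peak (36 bp) and 35 tags in an intron 25077 bp from the TSS.

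Nearly all STAT3 promoter peaks were in open chromatin of the same population. Of 416, 401 overlapped an ATAC peak by at least 1 bp (96.4%, 94.1 to 98.0), against 293 of the other 469 STAT3 peaks (62.5%, 57.9 to 66.9). The summit itself was inside an ATAC peak in 382 (91.8%, 88.8 to 94.3), against 261 of 469 (55.7%, 51.0 to 60.2). The share was 98.2% (95.6 to 99.5) within 100 bp of the TSS, 116 of 116 at over 100 to 300 bp and 31 of 41 (75.6%, 59.7 to 87.6) beyond 500 bp. In 5 score classes of near equal size, from low to high, it was 91.6%, 94.0%, 97.6%, 98.8% and 100%. Open chromatin was common at promoters in general: 14107 of the 20691 genes named in any of the 4 peak lists had an ATAC promoter peak. The share of all promoters was not counted by the same overlap.

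The 15 promoter peaks without ATAC overlap were a mixed group. They included Rcc2, a mitotic regulator, Nova1, a neuronal splicing factor, Gjc1, a connexin gene, Trib2, a pseudokinase gene, Rprd1a, a regulator of RNA polymerase II, Fbxl22, Krt84, the weaker peak of Tgif1, the distal peak of Uap1l1, and Rn4.5s, 4930402F06Rik, C030013C21Rik, Gm21188, Gm5532 and Gm29685. Their median tags were 24 and median score 79.6, against 32 and 99.3 in the 401 open ones. The Rn4.5s peak had 57 tags at the lowest fold of any promoter peak, 10.5. Rn4.5s is a small RNA gene with many similar copies in the mouse genome, so its assignment is uncertain.

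Several gene lists of basic cell machinery, but not all of them, held more genes with a STAT3 promoter peak than the background. Over all 20691 genes named in any of the 4 peak lists, 1.98% had one, and over 14107 genes with an ATAC promoter peak, 2.69% had one. These shares are the background for every list below, and 295 of the 410 genes were in none of the 31 lists.

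Chaperones had the highest share among the lists, 8 of 55 genes (14.5%, 6.495 to 26.7). They were Hspa4 (81 tags), Dnajc8 (58 tags), Hsp90aa1, the inducible HSP90 (54 tags), Chordc1, an HSP90 partner (44 tags), Hsph1, an HSP110 (38 tags), Hspbp1 (29 tags), Dnaja1 (28 tags) and Cct5, a subunit of the chaperonin of the cytosol (27 tags). Hspe1, the mitochondrial co-chaperonin, had 30 tags. The heat shock element GAANNTTC, the site of the HSF factors, had a share in promoters with a STAT3 peak (22 of 329, 6.69%, 4.24 to 9.95) near that in ATAC promoters (5.94%). It was in 3 of the 7 chaperone windows that could be read and in that of Hspe1, shown here with the element in capitals.
Hspe1 (chr1:55088058-55088077, plus strand): gttctaGAACCTTCcggaag
Chordc1 (chr9:18292257-18292276, plus strand): caaccgGAACGTTCggGAAA
Hsph1 (chr5:149636282-149636301, minus strand): attctgGAAAGTTCtcctca
Dnaja1 (chr4:40722338-40722357, plus strand): cctctaGAAAATTCtacgag
The element was centred 22 bp from the summit at Hsph1, 59 bp at Hspe1, 72 bp at Chordc1 and −93 bp at Dnaja1. In Chordc1 the final capitals open a second match, which runs on past the bases shown.

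Genes of RNA processing and export followed. Of 65 splicing factor genes 9 had a promoter peak (13.8%, 6.53 to 24.7), among them Hnrnpl, Srsf1 (58 tags), Hnrnph1 (38 tags), Prpf19 (53 tags) and Snrpc (32 tags). The nuclear pore list had 6 of 60 (10.0%, 3.76 to 20.5): Nup107 (45 tags), Nup50 (65 tags), Nup54 (29 tags), Rae1 (31 tags), Nup153 (22 tags) and Seh1l (23 tags). The genes of 3′ end processing and decay had 4 of 56 (7.14%, 1.98 to 17.3), the deadenylase subunits Cnot4 (34 tags) and Cnot10 (23 tags) and the exosome subunits Exosc4 (48 tags) and Exosc5 (22 tags). Subunits of RNA polymerases, general factors and Mediator had 6 of 94 (6.38%, 2.38 to 13.4), among them the elongation cyclins Ccnt1 (48 tags) and Ccnt2 (23 tags) and the Mediator genes Med26 (37 tags) and Med18 (42 tags).

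Vesicle coats and tethers had 12 of 119 (10.1%, 5.32 to 17.0). Besides Copg1 and Sec24c they included Ap1m1, an adaptor of clathrin at the Golgi (52 tags), Clta, a clathrin light chain (42 tags) and Trappc8, a tethering subunit (31 tags). Autophagy and lysosomal acidification had 6 of 58 (10.3%, 3.89 to 21.2), with Atg16l1 (87 tags) and Atp6v1e1 (67 tags) highest, then Atg3 (43 tags), Gabarap (34 tags), Atp6v0d1 (23 tags) and Wipi2 (22 tags). Proteasome subunits had 4 of 46 (8.70%, 2.42 to 20.8), Psma3 (50 tags), Psma6 (36 tags), Psmb2 (35 tags) and Psma2 (30 tags). Chromatin regulators had 7 of 93 (7.53%, 3.08 to 14.9), among them Nipbl, the cohesin loader (42 tags), Kdm5a (35 tags) and Bap1 (32 tags). The lower bounds of the chaperone, splicing, vesicle, autophagy, nuclear pore and chromatin lists were above both backgrounds, and those of the proteasome list and the list of RNA polymerases and Mediator were above 1.98% and under 2.69%. Counted only over listed genes with an ATAC promoter peak, these 2 lists had 4 of 41 and 6 of 81. Their lower bounds were then 2.72% and 2.77%, above 2.69%.

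Blood regulators were few among the peaks, but the share of the stem and progenitor list was above the background of all genes. The list of stem and progenitor factors had 4 of 48 (8.33%, 2.32 to 19.98): Runx1 and its partner Cbfb (48 tags), Nfe2, a factor of red cells and platelets (36 tags), and Zfpm1, the GATA cofactor FOG1 (23 tags). That is 4.21 times the share of 1.98%. Over listed genes with an ATAC promoter peak it was 4 of 42, with a lower bound of 2.66%, just under 2.69%. Blood receptors had 3 of 36 (8.33%, 1.75 to 22.5): Tfrc, the transferrin receptor (44 tags), Kit, the receptor of stem cell factor (37 tags in an intron, 922 bp from the TSS), and Il3ra, an interleukin-3 receptor subunit (21 tags). Of 18 erythroid markers, Tfrc and Hemgn (22 tags) had a promoter peak. None was found at 21 lymphoid markers, at 20 of mast cells and megakaryocytes, at 19 of neutrophils and monocytes or at 23 of tissues other than blood. A peak list does not measure expression, so the cell label could not be checked with these genes.

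Within 1000 bp of the TSS, known genes of the STAT3 pathway were near background, with wide intervals. Of 36 genes of STAT and JAK signalling, Ptpn11, the phosphatase SHP2, had a promoter peak (34 tags at −394 bp, 2.78%, 0.0703 to 14.5). Of 44 known STAT3 targets, Irf9, a factor of the interferon response, had one (20 tags at 189 bp, 2.27%, 0.0575 to 12.02), and it ranked 401 of 416 by score. STAT3 peaks away from promoters were listed at Stat5b (35 tags), Il6ra, the interleukin-6 receptor (48 tags), Lifr (27 tags), Grb2 (53 tags), Ptpn6 (27 tags), Ccnd3 (38 tags), Bcl3 (30 tags), Zfp36 (48 tags) and A2m (20 tags). Stat3 itself had none. With a limit of 5000 bp, STAT and JAK signalling had 3 of 36 (8.33%, 1.75 to 22.5). Known targets then had 3 of 44 (6.82%, 1.43 to 18.7), against 2.74% of all genes. The share of all genes with a STAT3 peak at any distance was not counted.

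The intervals of the remaining lists held 1.98%, except that of the olfactory receptor genes, which lay under it. Translation factors had 4 of 58 (6.90%, 1.91 to 16.7). Mitochondrial and cytosolic ribosomal proteins had 4 of 72 and 4 of 77, cell cycle genes 4 of 78, ubiquitin conjugation 4 of 115 and zinc finger genes named Zfp or Zbtb 12 of 377. Mitochondrial import and chaperones had 3 of 38, oxidative phosphorylation 3 of 77, tRNA synthetases 2 of 35, apoptosis regulators 2 of 44 and DNA repair 2 of 66. None of 61 histone genes or 381 olfactory receptor genes had one.

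**Figure D5:**
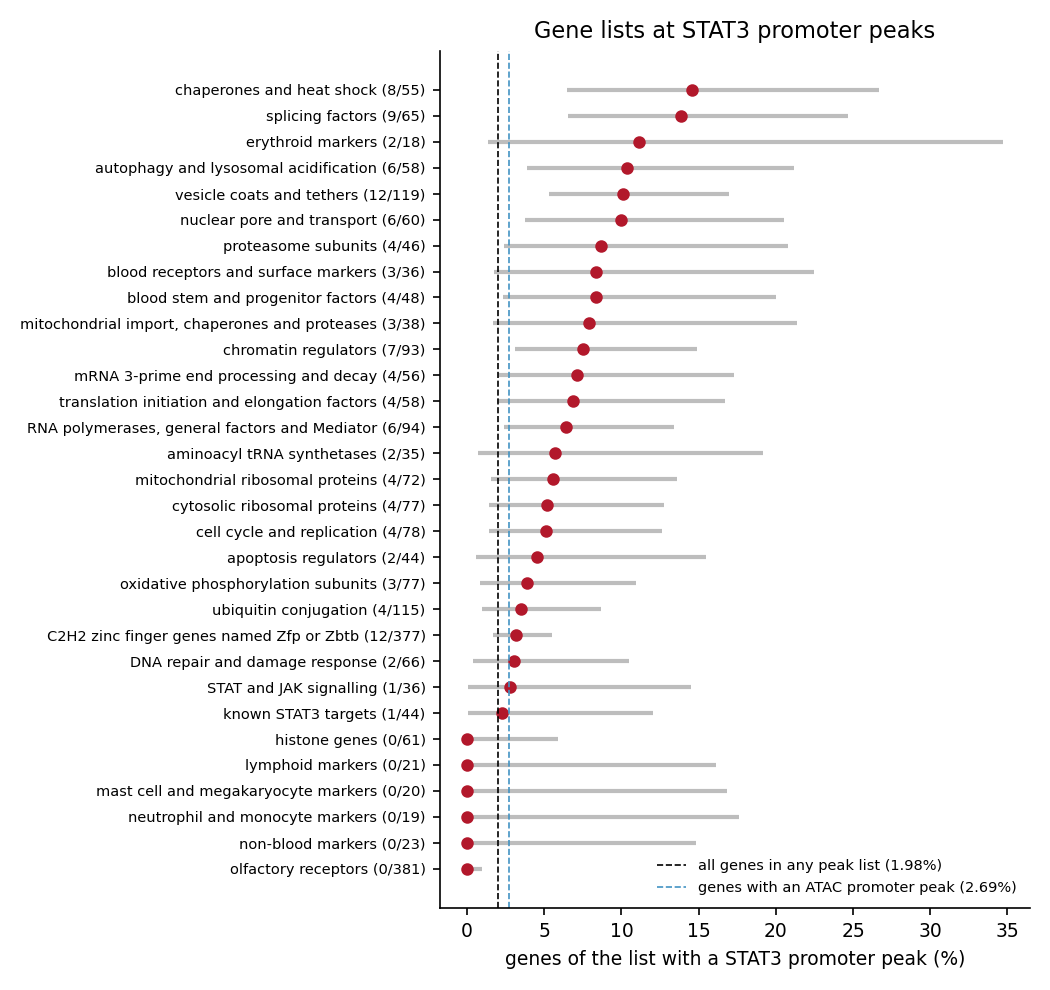
Share of each gene list with a STAT3 promoter peak (x axis, %) for 31 lists (y axis, with the count), with exact 95% intervals over genes. Dashed lines are the share over all genes in any peak list (1.98%) and over genes with an ATAC promoter peak (2.69%). The intervals of chaperones, splicing factors, autophagy, vesicle coats, nuclear pore genes and chromatin regulators lie to the right of both lines, and those of STAT pathway genes across them.

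A minority of STAT3 promoter peaks overlapped a GABPa peak of lin-CD34- cells, and those that did had more tags. Of 416, 59 overlapped one (14.2%, 11.0 to 17.9), against 12 of the other 469 STAT3 peaks (2.56%, 1.33 to 4.43). The share of all promoters that a GABPa peak overlaps was not counted. This contrast therefore does not set promoters with a STAT3 peak apart from other promoters. Seen from the other side, 55 of 354 GABPa promoter peaks overlapped a STAT3 promoter peak (15.5%, 11.9 to 19.7). Median STAT3 tags were 42 in the overlapped peaks and 31 in the rest, and the median score was 113, against 94.6, while the median fold was 20.4, against 22.6. The highest-scoring were Sec24c (70 STAT3 and 215 GABPa tags), Eif4e (66 and 31), Anapc15 (74 and 25), Zfp438 (89 and 147), Atg16l1 (87 and 76), Pcbp1, a poly(C) RNA-binding protein gene (50 and 54), Nfxl1 (54 and 59), Ing3 (42 and 22), Ywhag, a 14-3-3 gene (47 and 41), and Ap1m1 (52 and 31). With both peaks set to 200 bp around their centres, 21 of 416 still overlapped (5.05%, 3.15 to 7.61).

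The overlap with GABPa went with runs of A or T more than with ETS cores. A GABPa peak overlapped 20 of 114 STAT3 promoter peaks with an ETS core in the window (17.5%) and 25 of 173 without one (14.5%). It overlapped 31 of 55 with a run of at least 8 A or T (56.4%) and 14 of 232 without a run (6.03%). The runs were searched after frequent words of the windows had been seen, and their part in the overlap was not tested. The kit named in the labels primes synthesis from a T tail added to the fragments, and whether A or T runs of the genome were primed in the same way was not tested. One such run can be read in the Sec24c promoter and another in that of Mrpl30, whose GABPa peak had 194 tags.

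Runs of at least 8 A or T were more frequent at STAT3 promoter peaks than in other promoters, and more so at those of the other ChIP libraries. They were in 54 of the 286 overlapped windows (18.9%, 14.5 to 23.9), against 5.83% (5.45 to 6.24) of windows of genes with an ATAC promoter peak. The same count was 81 of 198 overlapped windows for GABPa promoter peaks (40.9%, 34.0 to 48.1) and 9 of 19 for SOX4 promoter peaks (47.4%, 24.4 to 71.1). Runs of at least 15 were in 10.5% (7.19 to 14.6) of the STAT3 windows, against 1.77% (1.56 to 2.00) of ATAC promoter windows. Peaks with a run had a median of 41 tags and those without one 31. The nearest run was never within 25 bp of the summit (0 of 55 peaks) and came within 50 bp in 11. Without GABPa overlap, 24 of 242 windows held a run (9.92%, 6.46 to 14.4), and ETS cores and NRF1 sites were still in 38.8% (32.7 to 45.3) and 13.6% (9.58 to 18.6).

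The share of ETS cores at STAT3 promoter peaks was close to that at GABPa promoter peaks, while NRF1 sites and E-boxes had the higher share at STAT3 promoter peaks. CCGGAAG was in 39.9% (34.1 to 45.8) of the 286 windows overlapped by a STAT3 peak, against 40.4% (33.5 to 47.6) of the 198 overlapped by a GABPa peak. NRF1 sites were in 15.7% (11.7 to 20.5), against 7.58% (4.30 to 12.2), and E-boxes in 20.3% (15.8 to 25.4), against 7.07% (3.92 to 11.6).

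SOX4 peaks of the same population seldom met STAT3 promoter peaks. Of 416, 7 overlapped a SOX4 peak (1.68%, 0.679 to 3.44), against 51 of the other 469 STAT3 peaks (10.9%, 8.20 to 14.0). They were at Srsf1 (58 STAT3 tags), Rcc2 (33), Plpp1, a lipid phosphatase gene (33), Gjc1 (24), the weaker peak of Tgif1 (24), C030013C21Rik (21) and Gm29685 (19). Only Srsf1 and Plpp1 among these 7 overlapped an ATAC peak, and 5 of the 7 lay more than 500 bp from the TSS. SOX4 peaks were mostly away from promoters, with 160 of 3016 within 1000 bp of a TSS.

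Promoters shared by a pair of genes were frequent. A TSS of another gene on the opposite strand lay within 1000 bp upstream in 75 of 329 windows (22.8%, 18.4 to 27.7), against 13.03% (12.5 to 13.6) of windows of genes with an ATAC promoter peak and 11.3% of all windows. The median gap between the paired start sites was 151.5 bp (quartiles 97.3 and 243). Examples were Cwc15, a spliceosome gene, with Kdm4d, a histone demethylase gene (137 bp apart, 47 tags), Polh, the polymerase of damage bypass, with the exportin gene Xpo5 (170 bp, 44 tags), and Nfya, a subunit of the CCAAT-binding factor, with Oard1 (180 bp, 42 tags). Abce1, a ribosome recycling factor, and Anapc10 started 23 bp apart (36 tags). At such peaks the nearest gene alone was named by the authors, and the gene list counts follow that choice.

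STAT3 promoter peaks were spread over all autosomes, with most on chromosomes 11 (43), 5 (37) and 7 (36). On the X chromosome there were 3 (0.721%, 0.149 to 2.09), against 2.14% of genes with an ATAC promoter peak, a share just above that interval.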

How the data were processed

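ChIP-seq libraries were made with the DNA SMART ChIP-Seq Kit, per the labels' protocols. Tools in the submitters' processing notes are MACS2, Bowtie2, HOMER, Picard, SAMtools and CASAVA 1.7, with build mm10. Their roles, the callers' settings and library totals were not used here. Tags are counts of reads in each peak, as deposited. The authors' score, per the file headers, is −10·log10 of a p-value from the caller. Fold enrichment is a ratio over the caller's background, as deposited, and the authors' false discovery rate is in percent. The list holds scores from 70.5, folds from 10.5 and rates up to 4.9%, and no peak farther upstream than −4984 bp. Distances are from the peak centre to the TSS.

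Overlap needed 1 bp. Promoter windows (RefSeq, GRCm38.p6) were matched by gene ID, taking the TSS nearest to the peak centre within 1000 bp. For 265 of 332 matches the TSS was that of the authors within 1 bp. The 84 peaks without a matched window entered no motif count. Overlapping hits of a motif counted as 1 site in densities. Windows of genes with an ATAC promoter peak served as a second background. Members, gene lists and motifs were chosen with earlier results of these data known. Named genes were the 20 highest scores, some of those with most tags or fold, and up to 5 per list. Also named were the 10 highest with GABPa overlap, peaks without ATAC overlap or with SOX4 overlap, and genes with 2 peaks. So were windows with TTCCNGGAA and the 3 peaks on each side of 1000 bp. Other genes were chosen after their values were seen. Steps were tested on simulated data. Calculations used scipy 1.17.1, pandas 2.3.3 and numpy 2.4.6 under Python 3.11.15, and plots matplotlib 3.10.9.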

Additional observations from a re-analysis of the deposited data

How the results depend on the processing

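With a promoter limit of 500 bp, 42.4% of STAT3 peaks counted as promoter peaks, with 2000 bp 53.0%, and among peaks above the median score 53.3%, against 47.0% as reported. Overlap with ATAC peaks, 96.4% as reported, was 93.3% both when at least 50% of the peak had to be covered and when its centre had to be inside, 99.5% in promoter peaks above the median score, 98.7% within 500 bp and 94.0% within 2000 bp. Overlap with GABPa peaks, 14.2% as reported, was 5.05% at 200 bp around each centre and 19.7% above the median score. Overlap with SOX4 peaks, 1.68% as reported (0.679 to 3.44), was 0.533% within 500 bp, which is under that interval. It was 0.962% above the median score and 2.99% within 2000 bp, both inside the interval. Against windows of genes with an ATAC promoter peak in place of all windows, the excess of GC content fell to 2.00 percentage points, against 8.67, and that of the CpG ratio to 0.194, against 0.508. The cause of these shifts was not tested. In 25 of the 31 gene lists and 10 of the 20 motifs the share was above background, and these 2 counts stayed within 1.5 times under every alternative run. Of the single lists and motifs, 204 values stayed within the interval of the value as reported and 14 moved outside it. In 12 of these values the share lay on the other side of the background, each for a list or motif whose interval as reported held the background. Among peaks above the median score, the lists of STAT and JAK signalling, known STAT3 targets, blood receptors and erythroid markers came to 0, and chromatin regulators to 1.09 times the background, against 3.80. Against ATAC promoters, known STAT3 targets came to 0.954 times, against 1.15, the STAT palindrome to 1.05, against 0.879, and the heat shock element to 1.13, against 0.851. No paired analysis was possible because every group had 1 library. For the same reason no replicate could be left out. Library totals and control tags per peak were not used here, so depth is seen only as tags per peak.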
